A study of Mus musculus with 16 samples.

Results

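The ligands, receptors and Smad proteins of TGF-beta signalling and the receptors of PDGF were followed here as 10 genes, Tgfb1, Tgfb2, Tgfb3, Tgfbr1, Tgfbr2, Tgfbr3, Smad3, Smad7, Pdgfra and Pdgfrb, out of 32989 genes in the deposited liver and kidney tables. They were found by symbol, and each symbol had 1 row. The libraries came from male C57BL/6J mice kept for 85 weeks either under a regular light-dark cycle (LD) or under an 8-h phase advance every 4 days (ADV), a chronic jet-lag schedule, and the mice were 97 weeks old when tissue was taken. Liver and kidney of the same 8 mice were sequenced, which gave 4 LD livers, 4 ADV livers, 4 LD kidneys and 4 ADV kidneys. The LD mice are named L63, L65, L86 and L104 and the ADV mice A75, A91, A94 and A115. All mice were wild type. The comparisons addressed whether these transcripts differed between LD- and ADV-conditioned mice in each organ, and how the organs of a mouse differed.

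TGF-beta ligands are secreted in a latent form, stored in the extracellular matrix and released by integrins and proteases. The active ligand joins the kinases encoded by Tgfbr2 and Tgfbr1, with the co-receptor encoded by Tgfbr3 as a presenter, and the kinase phosphorylates Smad2 and Smad3, which turn on matrix genes and also Smad7, the inhibitor that closes the loop. The PDGF receptors are tyrosine kinases of mesenchymal cells. In liver and kidney both pathways are known for driving stellate cells, pericytes and fibroblasts towards collagen-producing myofibroblasts, the cells of fibrosis.

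The fragments on genes ranged from 21092501 to 24285055 per liver and from 15688495 to 18043306 per kidney, and every ADV liver had fewer than every LD liver. Transcripts are given as FPKM, fragments per kilobase of exon scaled to the size of the library, so that levels of genes of different length can be set side by side. Log2 fold changes were taken on the log2(FPKM + 0.1) scale, which understates changes of low genes, and tested with limma over all genes above a minimum level. A gene is said to be called where its p, adjusted by the Benjamini-Hochberg method over all genes tested, was under 0.05. As a check of the labels, hepatocyte markers summed to 56486.5 to 70251.9 FPKM in the livers, and proximal tubule markers to 18337.2 to 46239.4 FPKM in the kidneys and at most 0.112 in the livers. The kidneys had 741.9 to 1098.7 FPKM of the hepatocyte markers, of which Cyp2e1 gave 683.4 to 1056.5. Among the libraries, the kidney of A115 held 33.8% mitochondrial transcripts, against 15.7% to 18.0% in the LD kidneys and 10.7%, 13.1% and 9.43% in those of A75, A91 and A94, which were all below the LD kidneys. Lymphocyte markers summed to 43.4 FPKM in the liver of A94 and 44.8 in its kidney, against at most 2.48 and 4.64 in the other livers and kidneys. The fold changes of the 10 genes are therefore given with and without A94 in the liver, and with and without A115 and A94 in the kidney. Each library of a group came from another mouse, so that p-values cover the spread between mice.

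In the coordinates of GRCm38/mm10, the gene of the main ligand, Tgfb1, lies at chr7:25687002-25705077 on the plus strand. Tgfbr2, the kinase that binds the ligand first, lies at chr9:116087695-116175363 on the minus strand. Pdgfra, 1 of the PDGF receptors, lies at chr5:75156166-75198204 on the plus strand in the deposited table. The 250 bases before the start of these genes are shown because the level of Tgfb1 and Tgfbr2 in the liver of A94 and the level of Pdgfra in the ADV livers stood apart, as described below. The sequences are those of RefSeq (GRCm38.p6), which had windows for 6 of the 10 genes, and capitals mark the GC box GGGCGG or its reverse complement CCGCCC.

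Tgfb1 (chr7:25686752-25687001, plus strand): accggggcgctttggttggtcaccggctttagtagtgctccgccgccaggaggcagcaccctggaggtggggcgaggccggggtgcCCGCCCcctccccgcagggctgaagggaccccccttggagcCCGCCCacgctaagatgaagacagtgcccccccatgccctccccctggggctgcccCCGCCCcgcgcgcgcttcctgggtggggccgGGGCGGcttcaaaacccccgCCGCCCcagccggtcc
Tgfbr2 (chr9:116175364-116175613, minus strand): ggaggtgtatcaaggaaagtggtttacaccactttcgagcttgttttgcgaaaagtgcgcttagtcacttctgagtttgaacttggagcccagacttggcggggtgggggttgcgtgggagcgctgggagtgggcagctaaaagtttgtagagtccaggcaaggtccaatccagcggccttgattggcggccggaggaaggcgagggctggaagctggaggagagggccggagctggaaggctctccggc
Pdgfra (chr5:75152001-75152250, plus strand): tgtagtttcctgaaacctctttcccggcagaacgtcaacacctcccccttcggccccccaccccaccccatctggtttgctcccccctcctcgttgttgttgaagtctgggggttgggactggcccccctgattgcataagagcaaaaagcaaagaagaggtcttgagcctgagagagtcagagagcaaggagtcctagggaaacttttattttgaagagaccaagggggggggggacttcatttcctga

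The window of Tgfb1 held 5 GC boxes and 75.2% G and C, against a median of 52.4% over all 32851 windows. A GC box on either strand was found in 32.7% of all windows. The windows of Tgfbr2 and Pdgfra held none, and their G and C content was 58.4% and 54.4%. Tgfbr2 held CCAAT or its reverse complement at 2 places, a motif found in 33.8% of all windows, and Tgfb1 and Pdgfra held none. The start of Pdgfra in RefSeq lies upstream of that in the deposited table, so that the window printed belongs to a longer transcript. The palindrome GTCTAGAC, the classical Smad element, was in 0.167% of all windows and in none of those of the 6 genes. The shorter Smad motif CAGACA or its reverse complement TGTCTG was in 17.1% of all windows, once in that of Tgfb2 and once in 1 of the 2 windows of Tgfbr1. The windows did not overlap each other.

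Levels of the 10 genes covered a wide range in each organ. In LD livers the order of the means ran from Tgfbr1 (7.0 ± 0.446 FPKM, SD, n = 4) over Tgfbr2 (4.84 ± 0.352), Smad3 (2.71 ± 0.499), Tgfb1 (2.17 ± 0.419), Smad7 (1.71 ± 0.342), Tgfbr3 (1.53 ± 0.147), Pdgfrb (1.05 ± 0.0859), Pdgfra (1.03 ± 0.112) and Tgfb3 (0.308 ± 0.144) to Tgfb2 (0.0519 ± 0.0274). The ranges of neighbours in this order overlapped for Smad3 with Tgfb1, Tgfb1 with Smad7, Smad7 with Tgfbr3 and Pdgfrb with Pdgfra, and did not overlap for the others. In LD kidneys Tgfbr2 came first (18.7 ± 4.24 FPKM, n = 4), followed by Tgfbr1 (14.1 ± 0.745), Tgfbr3 (7.46 ± 0.732), Smad3 (7.29 ± 1.39), Pdgfra (6.30 ± 0.561), Tgfb1 (6.15 ± 2.29), Pdgfrb (4.76 ± 0.488), Smad7 (4.42 ± 0.467), Tgfb2 (0.704 ± 0.286) and Tgfb3 (0.425 ± 0.136). Only the steps from Tgfbr1 to Tgfbr3 and from Smad7 to Tgfb2 were without overlap there. In each organ the signalling kinases Tgfbr1 and Tgfbr2 were at the top and the ligands Tgfb2 and Tgfb3 at the bottom. The SD was larger in the ADV than in the LD mice for 9 of the 10 genes in each organ, the exceptions being Smad3 in the liver and Tgfbr2 in the kidney, as it was for 77.7% of all genes tested in the liver and 89.9% in the kidney. In the ADV mice the only step without overlap was that from Tgfb3 to Tgfb2 in the liver and that from Smad7 to Tgfb2 in the kidney. Tgfb2 rested on between 3 and 26 fragments in the livers, and its liver level is therefore the least precise of all.

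**Figure D1:**
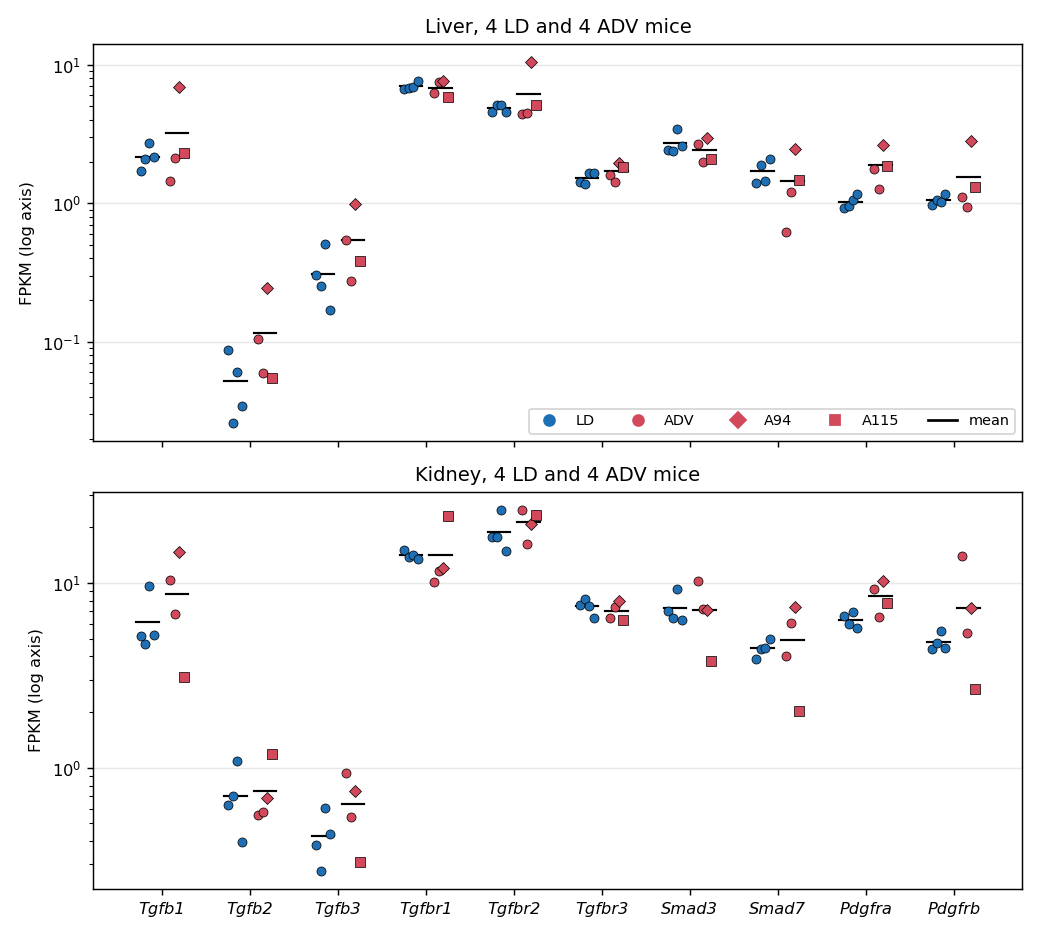
Level of the 10 genes in FPKM (log axis) in each liver (upper panel) and kidney (lower panel). Points are single mice, LD in blue and ADV in red, with A94 as diamonds and A115 as squares, and bars are group means. The diamond of A94 is the highest liver point for 8 of the 10 genes, and Pdgfra is the gene whose 4 ADV livers all lie above the 4 LD livers.

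In the liver, none of the 9 genes that passed the filter on low values was called between ADV and LD, where 0.00779% of the 12835 genes tested were called. That share was a single gene, Col27a1, a fibrillar collagen, named because the count is so low, which fell by 1.54 ± 0.13 (SE, adjusted p = 0.00609). The gene of the 10 that came nearest was Pdgfra, the receptor of mesenchymal cells that binds most PDGF forms. Its level was 0.917, 0.960, 1.06 and 1.17 FPKM in the livers of L63, L65, L86 and L104 and 1.76, 1.26, 2.65 and 1.85 FPKM in those of A75, A91, A94 and A115. The 4 ADV livers were above the 4 LD livers without overlap, as was the case for 6.94% of all genes tested. Its log2 fold change was 0.77 ± 0.21 (SE, 95% interval 0.29 to 1.25), with an adjusted p of 0.296 by limma. Pdgfra was also the 1 gene of the 9 with an unadjusted p under 0.05, which 11.8% of all genes had. The two-sided exact permutation test gave p = 0.0286, the smallest value that 4 against 4 mice can give. The adjusted p ranged from 0.104 to 0.647 over the alternative settings, and without A94 the log2 fold change was 0.60, with an adjusted p of 0.194.

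Pdgfrb, the other PDGF receptor and a marker of pericytes, did not separate the groups. It stood at 0.974, 1.05, 1.02 and 1.17 FPKM in the LD livers and at 1.11, 0.939, 2.81 and 1.32 FPKM in those of A75, A91, A94 and A115. A94 lay far above the LD range and the other ADV livers in or near it. With all mice the log2 fold change was 0.39 ± 0.29 (adjusted p = 0.567), and without A94 it was 0.08.

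Of the ligands, Tgfb1 had 1.72, 2.08, 2.73 and 2.17 FPKM in the LD livers and 1.45, 2.11, 6.94 and 2.30 FPKM in those of A75, A91, A94 and A115. The liver of A94 thus held more Tgfb1 than any other liver, and the remaining ADV livers lay within or below the LD range. A log2 fold change of 0.30 ± 0.40 (adjusted p = 0.753) turned to −0.15 without A94. Tgfb3, a ligand of mesenchymal tissue, ranged from 0.169 to 0.507 FPKM in the LD livers and from 0.275 to 0.983 in the ADV livers, again with A94 highest. Its difference of 0.61 ± 0.37 on the log2 scale (adjusted p = 0.499) was 0.33 without A94. Tgfb2 did not pass the filter in the liver. It ranged from 0.0258 to 0.0866 FPKM in LD and from 0.0548 to 0.242 in ADV (exact permutation p = 0.200, two-sided).

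The TGF-beta receptors differed among themselves in how they varied. Tgfbr2 stood at 4.54, 5.15, 5.15 and 4.53 FPKM in the LD livers and at 4.42, 4.49, 10.4 and 5.10 FPKM in those of A75, A91, A94 and A115. The value of A94 was above all others, and the log2 fold change went from 0.24 ± 0.25 (adjusted p = 0.680) to −0.05 without it. Tgfbr1, the kinase that phosphorylates the Smads, stayed between 6.70 and 7.66 FPKM in LD and between 5.87 and 7.57 in ADV, and its log2 fold change was −0.05 ± 0.12 (95% interval −0.31 to 0.21, adjusted p = 0.873), and −0.10 without A94. Tgfbr3 ranged from 1.37 to 1.66 FPKM in LD and from 1.41 to 1.95 in ADV, and its log2 fold change of 0.14 ± 0.15, at an adjusted p of 0.682, was 0.07 without A94 and −0.08 after quantile normalization. The liver of A94 was thus the highest in Tgfbr2, and its 7.57 FPKM of Tgfbr1 lay within the LD range.

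Both Smad genes had fold changes on the lower side in the ADV livers. Smad7, the inhibitory Smad that TGF-beta itself induces, had 1.39, 1.88, 1.45 and 2.10 FPKM in LD and 0.616, 1.21, 2.45 and 1.46 FPKM in A75, A91, A94 and A115. The lowest and the highest liver were both ADV livers, A75 and A94. Smad7 had a log2 fold change of −0.36 ± 0.34 (adjusted p = 0.644), of −0.65 without A94 (adjusted p = 0.309) and of −0.04 without A75 (adjusted p = 0.955), so that its size rested on A75. Smad3, which carries the signal to the nucleus, ranged from 2.39 to 3.44 FPKM in LD and from 1.97 to 2.93 in ADV (log2 fold change −0.16 ± 0.18, adjusted p = 0.694, and −0.25 without A94).

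Of the 9 genes tested, 6 were higher and 3 lower in the ADV livers, and the median of their log2 fold changes was 0.24, against 0.10 over all genes tested. Without A94, 4 were higher and 5 lower, with a median of −0.05 against 0.02 over all genes. A94 had the highest liver level of 8 of the 10 genes, and the share of all genes that were highest in A94 is not given here. The liver of A94 also had the highest level of all 7 markers of stellate cells, pericytes and fibroblasts, of 4 of 5 macrophage markers, of all 5 lymphocyte markers and of all 3 neutrophil markers. The stromal markers summed to 129 to 146 FPKM in the LD livers and to 220, 176, 281 and 205 FPKM in A75, A91, A94 and A115. This sum did not overlap between the groups. Most of that sum was Dcn, the matrix proteoglycan decorin, with 103.6 to 119.5 FPKM in LD and 147 to 212 in ADV. Dcn and Rgs5 (7.68 to 10.1 in LD, 11.3 to 15.6 in ADV) were above LD without overlap, as were 6.94% of all genes tested. Des, Lrat, Lum and Reln overlapped between the groups. Cspg4, a pericyte marker, was at 0 in every LD liver and at most at 0.0164 FPKM in ADV. Macrophage markers ranged in sum from 40.2 to 60.8 FPKM in LD and from 59.4 to 185 in ADV, neutrophil markers from 6.54 to 10.9 in LD and from 4.07 to 73.9 in ADV, and endothelial markers from 20.0 to 25.7 in LD and from 21.8 to 33.7 in ADV. In whole tissue, more or fewer cells of a type and more or less RNA per cell cannot be told apart, and the part of the other cell types in the levels above was not tested.

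**Figure D2:**
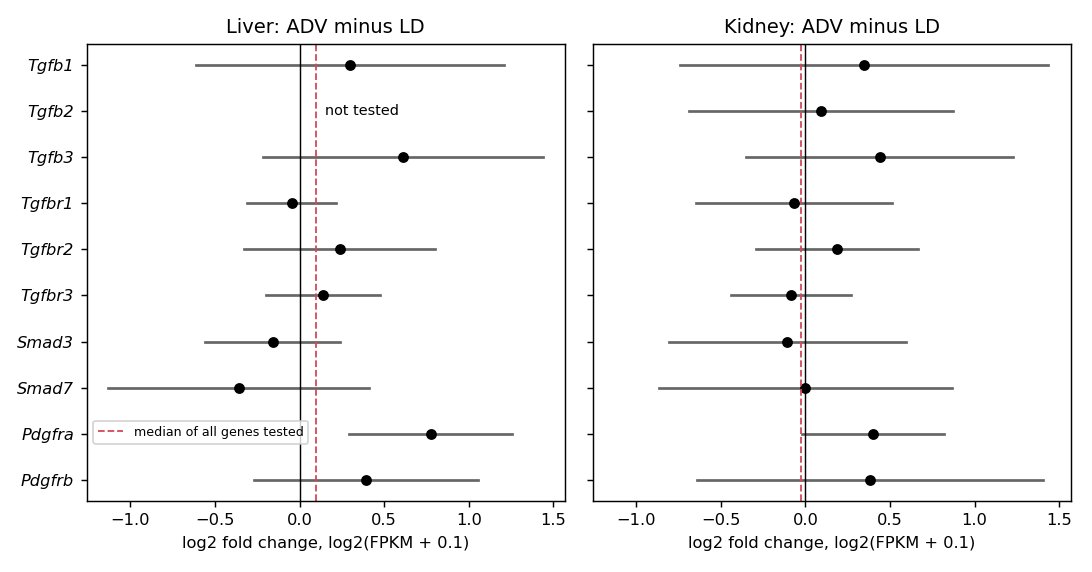
Log2 fold change, ADV minus LD, of the 10 genes in liver (left) and kidney (right), as points with 95% intervals from limma on log2(FPKM + 0.1). Tgfb2 was not tested in the liver and has no point there. The dashed line is the median over all genes tested (0.10 in liver, −0.02 in kidney). In the liver the interval of Pdgfra, 0.29 to 1.25, is the only one that leaves out 0, and in the kidney none does.

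The genes around the 10 members were taken as 5 lists written from general knowledge, with earlier results of these data known. In the liver none of their 54 genes tested was called. Every ADV liver was above every LD liver for 5 of them (Ltbp2, Thbs1, Postn, Col1a1 and Rasa1) and below for 2 (Zfyve9 and Plcg1), against 6.94% and 1.89% of all genes. The list of transcripts that TGF-beta is known to induce had 13 of 13 genes tested on the higher side in ADV, with a median log2 fold change of 1.62 against 0.10 over all genes, and 6 of them had an unadjusted p under 0.05. After scaling by the median ratio 12 of the 13 were higher. Its genes with the smallest p were Acta2, the smooth muscle actin of myofibroblasts, and Timp1, an inhibitor of matrix proteases. Acta2 had 0.454, 0.412, 0.846 and 0.334 FPKM in the LD livers and 7.89, 0.599, 3.76 and 2.26 FPKM in A75, A91, A94 and A115, a difference of 2.19 ± 0.63 on the log2 scale (adjusted p = 0.310). Here A75, not A94, was highest, and A91 lay within the LD range. Timp1 had 0.0928, 0.184, 0.259 and 0.301 FPKM in LD and 0.849, 0.270, 3.14 and 1.03 FPKM in ADV, a difference of 1.84 ± 0.57 on the log2 scale (adjusted p = 0.326). Acta2 and the collagens Col1a1, Col1a2 and Col3a1 are on the list. The study, which used DESeq2 and not limma, reported them as upregulated in these ADV livers, and also Lum, a stromal marker above. Because the lists were chosen with earlier results of these data known, the direction of no list gene is independent evidence. Without A94, 9 of 12 genes tested were higher, and the median was 0.73 against 0.02 over all genes. Acta2 was then at 2.02, and Timp1 no longer passed the filter on low values. Fn1, fibronectin, which hepatocytes secrete in bulk, had a log2 fold change of 0.01 ± 0.18 and was named for being the lowest of the list.

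The list for storage and activation of the ligands had 10 of 12 genes on the higher side in the liver, with a median of 0.54, which was 0.20 without A94. Fbn1, fibrillin-1, a scaffold for latent TGF-beta, had 0.153 ± 0.0177 FPKM in LD and 0.621 ± 0.581 in ADV (SD, n = 4), which is 1.2 ± 0.46 on the log2 scale (adjusted p = 0.385) and 0.72 without A94. Ltbp2, a microfibril protein of the latent TGF-beta binding family, had 1.15 ± 0.46 on that scale (adjusted p = 0.391) and did not pass the filter without A94. The other Smads and Smad regulators had 10 of 15 genes on the higher side and a median of 0.09, close to that of all genes. Zfyve9, the anchor protein that presents Smads to the receptor, had 6.38, 6.50, 7.08 and 6.80 FPKM in LD and 5.81, 5.75, 4.41 and 5.61 FPKM in ADV, every ADV liver below every LD liver, which held for 1.89% of all genes (log2 fold change −0.31 ± 0.12, adjusted p = 0.382). Smad1, a Smad of the BMP branch, was at 0.27 ± 0.15 (adjusted p = 0.489).

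Among the PDGF ligands, 3 of 4 were on the higher side in the ADV livers, with a median log2 fold change of 0.31, and of 0.19 without A94. Pdgfc, a ligand of the receptor encoded by Pdgfra, had 0.822, 0.960, 1.14 and 1.14 FPKM in LD and 1.505, 0.863, 3.41 and 1.78 FPKM in A75, A91, A94 and A115 (log2 fold change 0.69 ± 0.34, adjusted p = 0.450, and 0.37 without A94). A91 stayed within the LD range, as it did for Acta2. Pdgfb was at 0.44 ± 0.36 (adjusted p = 0.588), and at 0.07 without A94. Of the 10 proteins that carry the signal of PDGF receptors, 5 were higher and 5 lower, with a median of 0.03. Plcg1, a phospholipase that docks on the receptors, had 5.31, 5.85, 5.45 and 5.54 FPKM in LD and 3.91, 3.41, 5.20 and 4.37 FPKM in ADV, every ADV liver below every LD liver as in 1.89% of all genes, and did not pass the test (log2 fold change −0.40 ± 0.14, adjusted p = 0.362). Rasa1, a brake on Ras, ranged from 5.50 to 5.88 FPKM in LD and from 5.98 to 6.64 in ADV (0.14 ± 0.09, adjusted p = 0.523).

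**Figure D3:**
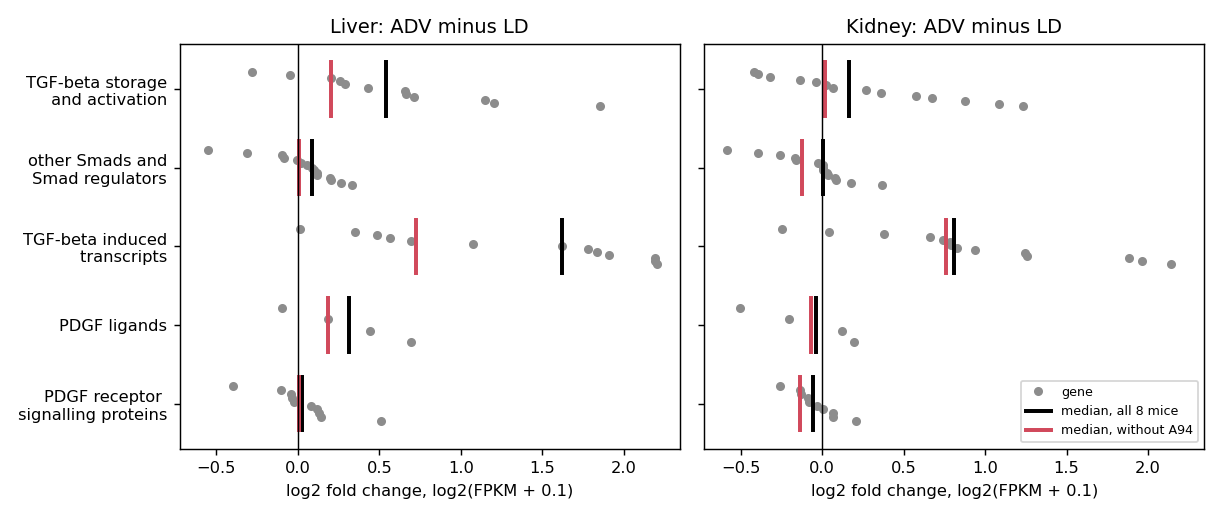
Log2 fold change, ADV minus LD, of single genes (grey points) in the 5 lists of pathway genes, in liver (left) and kidney (right), with the median of each list over all 8 mice (black bar) and without A94 (red bar). In the liver the median of the TGF-beta induced transcripts is 1.62 with A94 and 0.73 without it, and in the kidney 0.81 and 0.76.

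In the kidney, none of the 10 genes was called between ADV and LD, none had an unadjusted p under 0.05, and all had an adjusted p of 1 by limma. Over the 14452 genes tested, 0% were called, and 448 genes, 3.1%, had an unadjusted p under 0.05. Limma-voom on the fragments recovered from the tables also called none of the 10. With 6 of the 10 higher and 4 lower, the median of their log2 fold changes was 0.14, against −0.02 over all genes. Smad7 belonged to neither side in practice, with a log2 fold change of 0.00 ± 0.38.

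Pdgfra was again the gene with the smallest p. It stood at 6.62, 5.99, 6.91 and 5.69 FPKM in the LD kidneys and at 9.21, 6.51, 10.3 and 7.81 FPKM in those of A75, A91, A94 and A115. A91 lay within the LD range and the other ADV kidneys above it. Pdgfra had a log2 fold change of 0.40 ± 0.18 (95% interval −0.02 to 0.82, exact permutation p = 0.0857), which was 0.30 without A94 and 0.43 without A115. Pdgfrb had 4.39, 4.72, 5.46 and 4.46 FPKM in LD and 14.0, 5.38, 7.34 and 2.65 FPKM in A75, A91, A94 and A115. The ADV kidneys thus held the highest and the lowest value, A75 and A115. Its log2 fold change was 0.38 ± 0.44, and it was −0.01 without A75, 0.30 without A94 and 0.78 without A115.

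Tgfb1 had 5.15, 4.66, 9.56 and 5.22 FPKM in the LD kidneys and 10.3, 6.78, 14.7 and 3.08 FPKM in A75, A91, A94 and A115. A94 was highest in the kidney as in the liver, A115 was lowest, and L86 stood apart from the other LD mice. Its log2 fold change was 0.35 ± 0.47. Without A94 it was 0.03 (adjusted p = 0.999), and without A115 it was 0.77 (adjusted p = 0.110). Tgfb2 ranged from 0.397 to 1.09 FPKM in LD and from 0.553 to 1.19 in ADV (log2 fold change 0.09 ± 0.34), and Tgfb3 from 0.277 to 0.603 in LD and from 0.309 to 0.937 in ADV (0.44 ± 0.34). Without A94 the fold changes of Tgfb2 and Tgfb3 were 0.11 and 0.34, and without A115 they were −0.13 and 0.69.

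Tgfbr1 had 15.1, 13.8, 14.2 and 13.4 FPKM in the LD kidneys and 10.2, 11.6, 12.1 and 22.9 FPKM in A75, A91, A94 and A115. A115 lay above every LD kidney, and the other ADV kidneys lay below every LD kidney. With all mice the log2 fold change was −0.07 ± 0.25, and it was −0.02 without A94 and −0.32 without A115 (adjusted p = 0.0524). With A115 left out and scaling by the median ratio it was −0.52 and called (adjusted p = 0.0294), where 16% of all genes were called, 8.06% higher and 7.9% lower. Without A115 alone 18.8% were called, 16.1% higher and 2.68% lower. In both of these fits the mitochondrial share of the ADV kidneys, 9.43% to 13.1%, lay wholly below that of the LD kidneys, 15.7% to 18.0%, and its part in the calls was not tested. Tgfbr2 ranged from 14.9 to 24.8 FPKM in LD and from 16.2 to 24.9 in ADV (log2 fold change 0.19 ± 0.21), and Tgfbr3 from 6.46 to 8.22 in LD and from 6.31 to 7.93 in ADV (−0.08 ± 0.15). Smad3 ranged from 6.33 to 9.32 FPKM in LD and from 3.77 to 10.3 in ADV (−0.11 ± 0.30), and Smad7 from 3.86 to 5.0 in LD and from 2.03 to 7.43 in ADV. Without A94 the log2 fold changes were 0.19 for Tgfbr2, −0.14 for Tgfbr3, −0.14 for Smad3 and −0.25 for Smad7. Without A115 they were 0.14, −0.03, 0.16 and 0.36, so that the Smad genes changed side with the mouse left out. The kidney of A115 was the lowest of all for 5 of the 10 genes and the highest for 2, Tgfb2 and Tgfbr1. That kidney also held the largest share of mitochondrial transcripts, 33.8%. With library totals that left these transcripts out, none of the 10 was called, as with them left in. Proximal tubule markers summed to 27308 to 40340 FPKM in the LD kidneys and to 18337, 30136, 21265 and 46239 FPKM in A75, A91, A94 and A115. A75 and A94 were thus below every LD kidney in this sum and A115 above. Most of the sum was Kap, with 26080.2 to 38937.5 FPKM in LD and 19599.7 in A94. The other markers did not move together in A94. Slc34a1 (1312 FPKM) and Slc5a2 (129) were above the LD ranges of 801 to 992 and 62.2 to 82.4. Lrp2 (110.4) was within that of 109.6 to 155.5, and Slc22a6 (113) was below that of 130 to 185. The part of these cells and of the composition of A115 in the values of the 10 genes was not tested further.

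**Figure D4:**
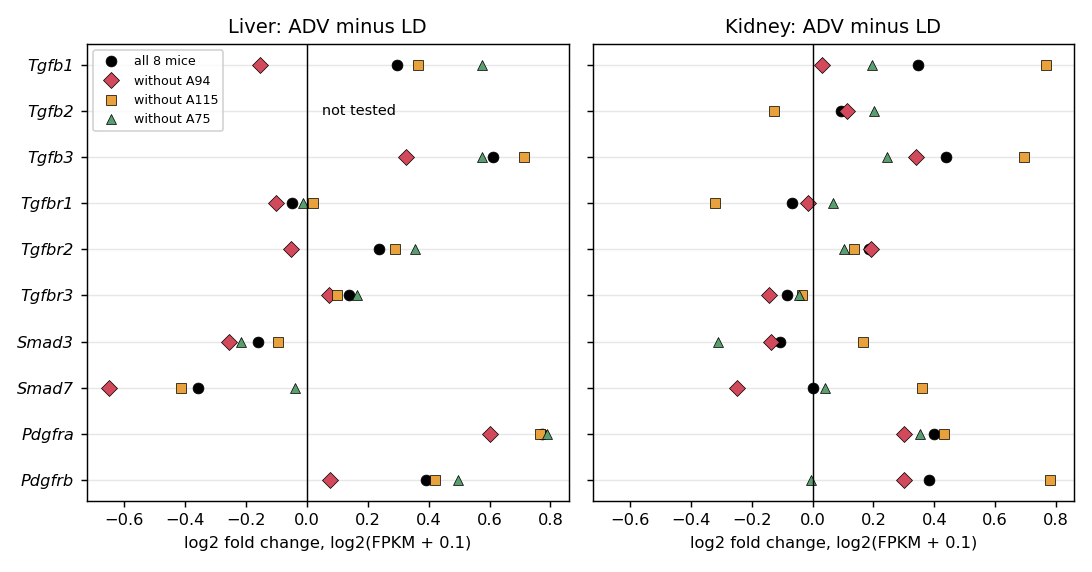
Log2 fold change, ADV minus LD, of the 10 genes in liver (left) and kidney (right) with all 8 mice and without A94, A115 or A75. Tgfb2 was not tested in the liver. In the liver, leaving out A94 moves Tgfb1 from 0.30 to −0.15 and Tgfbr2 from 0.24 to −0.05, and Pdgfra from 0.77 to 0.60. In the kidney, leaving out A115 moves Tgfbr1 from −0.07 to −0.32 and Pdgfrb from 0.38 to 0.78.

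None of the list genes was called in the kidney with all mice. The TGF-beta induced transcripts had 13 of 14 genes on the higher side in ADV, with a median log2 fold change of 0.81 against −0.02 over all genes, and 0.76 without A94. Cdkn2b, a cell cycle inhibitor that TGF-beta induces, had 1.02, 1.47, 1.90 and 1.70 FPKM in LD and 3.23, 2.23, 3.10 and 2.18 FPKM in ADV, every ADV kidney above every LD kidney, which held for 0.962% of all genes. Its log2 fold change was 0.79 ± 0.25 (adjusted p = 1), and without A115 it was 0.88 and called (adjusted p = 0.0361), where 16.1% of all genes were called higher. With A115 left out and scaling by the median ratio Cdkn2b was at 0.69 and not called (adjusted p = 0.0523). Col1a2, a chain of type I collagen, had 6.29, 8.12, 13.3 and 6.22 FPKM in LD and 22.5, 8.75, 33.0 and 21.8 FPKM in ADV (log2 fold change 1.26 ± 0.43). A91 lay within the LD range here as well. The storage and activation list had 9 of 14 genes on the higher side (median 0.17, but 0.02 without A94 and 0.63 without A115), with Fbn1 at 1.09 ± 0.34 and Ltbp2 at 1.23 ± 0.77, the latter at 0.73 without A94. The other Smads and regulators had 9 of 15 genes higher (median 0.00, and −0.13 without A94 and 0.05 without A115), with Smad9 at −0.59 ± 0.24 and Zfyve9 at −0.40 ± 0.18. Every ADV kidney was below every LD kidney in Smad9, as in 1.83% of all genes. Of the PDGF ligands 2 were higher and 2 lower (median −0.04, and −0.07 without A94 and 0.31 without A115), with Pdgfd at −0.20 ± 0.16 and Pdgfc at 0.19 ± 0.21. Without A94 these were −0.10 and 0.08, and without A115 −0.25 and 0.33. Of the PDGF receptor signalling proteins 4 were higher and 6 lower (median −0.06, and −0.14 without A94 and 0.11 without A115), with Sos1 at −0.26 ± 0.17 and Pik3r1 at 0.21 ± 0.24. Pik3r1 was at 0.02 without A115. The median over all genes was −0.10 without A94 and 0.20 without A115. Without A115, Ltbp3, Ltbp4, Emilin1 and Furin of the storage and activation list were called higher. Of the other Smads and regulators Smad6, Eng and Acvrl1 were then called higher and Smurf2 and Zfyve9 lower, and of the PDGF receptor signalling proteins Src and Shc1 higher and Sos1 and Rasa1 lower. Of all genes, 16.1% were called higher and 2.68% lower in that fit. The stromal markers summed to 48.7 to 65.8 FPKM in the LD kidneys and to 80.3, 53.4, 129 and 82.6 FPKM in A75, A91, A94 and A115. Macrophage markers ranged in sum from 11.8 to 22.2 FPKM in LD and from 9.84 to 45.6 in ADV. The part of these cells in the kidney values was not tested.

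Of the 10 genes, 9 were lower in the liver than in the kidney of the same mouse and called, over 8 mice, and none was higher. That must be read against the background, since 75.5% of the 14379 genes tested were called, 13.5% higher and 62.1% lower in the liver, and the median log2 difference of all genes was −0.74. After scaling by the median ratio, which set the median of all genes to −0.01, 8 of the 10 were called lower, where 65.9% of all genes were called, 31.8% higher and 34.1% lower.

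Pdgfra had the smallest p of the 10. It ranged from 0.917 to 2.65 FPKM in the livers (median 1.21) and from 5.69 to 10.3 in the kidneys (median 6.77), and the kidney held between 3.87 and 7.21 times the liver level in the 8 mice. The log2 difference, liver minus kidney, was −2.32 ± 0.11 (adjusted p = 8.8e-08), and −1.58 after scaling by the median ratio. Pdgfrb ranged from 0.939 to 2.81 FPKM in the livers and from 2.65 to 14.0 in the kidneys, where the liver of A94 overlapped with the kidney of A115. Its log2 difference was −2.07 ± 0.26 (adjusted p = 7.6e-05), and −1.33 after scaling by the median ratio.

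Of the TGF-beta receptors, Tgfbr3 ranged from 1.37 to 1.95 FPKM in the livers and from 6.31 to 8.22 in the kidneys (log2 difference −2.10 ± 0.11, adjusted p = 2.5e-07). Tgfbr2 ranged from 4.42 to 10.4 in the livers and from 14.9 to 24.9 in the kidneys (−1.88 ± 0.17, adjusted p = 7.6e-06). After scaling by the median ratio Tgfbr3 was at −1.35 and Tgfbr2 at −1.12. Tgfbr1 ranged from 5.87 to 7.66 in the livers and from 10.2 to 22.9 in the kidneys (−0.99 ± 0.16, adjusted p = 0.00043), and its difference was −0.23 and no longer called after scaling by the median ratio. For each receptor every liver was below every kidney, as it was for Pdgfra, Tgfb2 and Smad3 and for 34.8% of all genes.

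The ligands were split. Tgfb2 ranged from 0.0258 to 0.242 FPKM in the livers and from 0.397 to 1.19 in the kidneys (−2.18 ± 0.21, adjusted p = 1.4e-05), and Tgfb1 from 1.45 to 6.94 in the livers and from 3.08 to 14.7 in the kidneys (−1.44 ± 0.23, adjusted p = 0.00039). After scaling by the median ratio Tgfb2 was at −1.69 and Tgfb1 at −0.69. Over all alternative settings Tgfb2 ran from −3.23 to −0.66, so that its size depended on the processing. Tgfb3 ranged from 0.169 to 0.983 in the livers and from 0.277 to 0.937 in the kidneys, and was higher in the kidney in 6 of 8 mice. Its log2 difference of −0.31 ± 0.17 (adjusted p = 0.139) turned to 0.32 after scaling by the median ratio and to 0.87 after quantile normalization (adjusted p = 6.9e-04), so that no direction can be given for it. Smad3 had a log2 difference of −1.42 ± 0.14 (adjusted p = 1.4e-05) and Smad7 of −1.51 ± 0.21 (adjusted p = 0.00017). After scaling by the median ratio these were −0.66 and −0.77. For the 9 genes called, the kidney was higher in 8 of 8 mice, and the exact sign-flip test gave 0.0078, its smallest p.

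**Figure D5:**
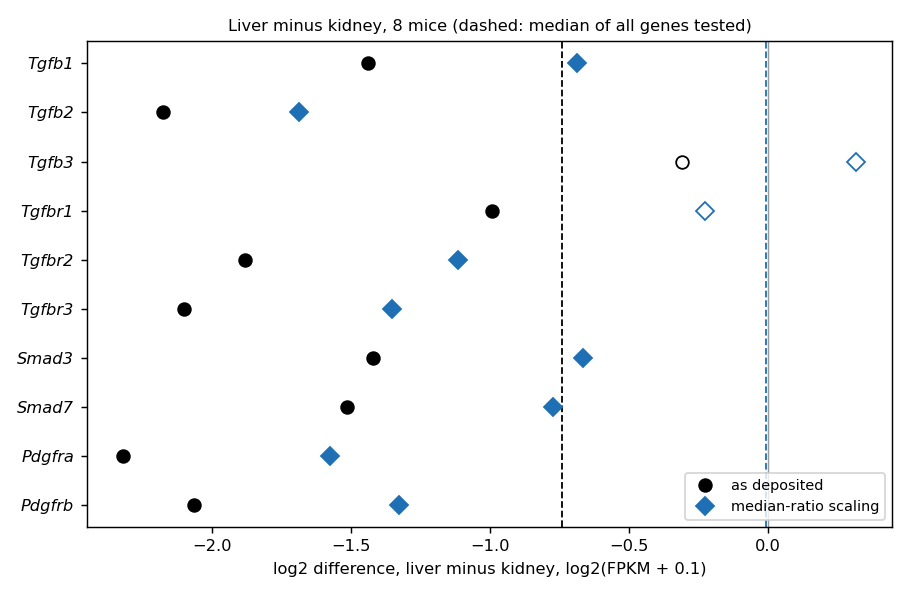
Log2 difference, liver minus kidney, of the 10 genes over 8 mice, with the deposited scaling (black circles) and with median-ratio scaling (blue diamonds). Filled symbols are called at an adjusted p under 0.05, open ones are not, and dashed lines are the medians of all genes tested (−0.74 and −0.01). Tgfb3 changes side with the scaling, and Tgfbr1 is no longer called.

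Of the 14 storage and activation genes, 8 were called lower in the liver and 1, Mmp14, a membrane protease, was called higher (log2 difference 1.32). Of all genes, 62.1% were called lower and 13.5% higher, so that the counts of this list were near the background. Itgb6 and Itgb8, the integrin chains of epithelia that release latent TGF-beta, had differences of −6.98 ± 0.19 and −6.21 ± 0.24, with 9.06 to 27.3 and 9.73 to 23.9 FPKM in the kidneys and at most 0.130 and 0.285 in the livers. Itgav, their partner chain, had −2.52 ± 0.15, and Ltbp1, which tethers the latent complex, −1.69 ± 0.12. After scaling by the median ratio 8 genes of this list were called lower and 3 higher, where 34.1% of all genes were called lower and 31.8% higher.

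The counts of the other lists stand against the same shares of all genes, 62.1% called lower and 13.5% higher as deposited, and 34.1% and 31.8% after scaling by the median ratio. Of the 15 other Smads and regulators, 12 were called lower in the liver and 1, Smad9, higher (1.93), but only 3 lower and 3 higher after scaling by the median ratio. Acvrl1, a type I receptor of endothelium, had −2.52 ± 0.24, Ski and Skil, which repress Smad complexes, −1.56 ± 0.13 and −1.19 ± 0.12, and Smad4, the common partner, −0.94 ± 0.10. After scaling by the median ratio Acvrl1, Ski and Skil were at −1.81, −0.80 and −0.43 and still called, and Smad4 was no longer called. Of the 14 induced transcripts, 10 were called lower and 3 higher, Fn1, Postn and Tgfbi. Fn1 had 94.7 to 165 FPKM in the livers and 2.15 to 12.2 in the kidneys (4.93 ± 0.20), and Ctgf (−3.23 ± 0.18), Pmepa1 (−3.36 ± 0.21) and Cdkn2b (−3.09 ± 0.20) were lower in the liver. Pdgfa (−1.16 ± 0.41), Pdgfb (−3.41 ± 0.33), Pdgfc (−1.96 ± 0.19) and Pdgfd (−2.87 ± 0.10), all 4 PDGF ligands, were called lower in the liver, 3 of them also after scaling by the median ratio. Of the PDGF receptor signalling proteins 4 were called lower and none higher, but 1 lower and 6 higher after that scaling, so that Src, a kinase recruited by the receptors, was the only gene of this list lower under both (−3.05 ± 0.38). Crk, Grb2 and Rasa1, at −0.72 ± 0.10, −0.61 ± 0.14 and −0.60 ± 0.16, turned to 0.06, 0.16 and 0.16.

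Whether the ADV effect differed between the organs was tested on the liver minus kidney difference of each mouse. None of the 10 genes was called, with adjusted p of 1, 0% of all genes were called, and 3.55% had an unadjusted p under 0.05 while none of the 10 had. The differences ran from −0.36 ± 0.43 for Smad7 to 0.37 ± 0.21 for Pdgfra (95% interval −0.11 to 0.86, exact permutation p = 0.0857). For Tgfbr1 the interval was −0.72 to 0.76 and for Pdgfrb −1.17 to 1.19, so that sizeable differences in either direction lie within these intervals. Of the list genes none was called either. The smallest p were those of Thbs1, an activator of latent TGF-beta (1.83 ± 0.77), Acta2 (1.37 ± 0.50) and Fn1 (−0.93 ± 0.40), all with an adjusted p of 1. Thbs1 had 4.96 FPKM in the liver of A94, against 0.178 to 0.544 in the other ADV livers, and its difference was 0.99 without A94.

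The make-up of each small family was compared as shares of its summed FPKM, with 12 exact permutation tests adjusted together, none of which passed. Tgfb1 gave most of the ligand transcripts, 86% ± 4.63 (SD, n = 4) in LD livers, 81.1% ± 8.06 in ADV livers, 84.3% ± 1.57 in LD kidneys and 82.9% ± 10.6 in ADV kidneys. Tgfbr2 made up 38.3% ± 6.15 of the TGF-beta receptor transcripts in the livers and 48.1% ± 6.04 in the kidneys (n = 8), and was lower in the liver in 7 of 8 mice (exact p = 0.0156, adjusted p = 0.188). A94 was the exception, with 52.3% in the liver and 50.8% in the kidney. Smad7 made up 38.8% ± 7.12 of Smad3 and Smad7 in LD livers and 35.9% ± 11.9 in ADV livers, with 18.6% in A75 as the lowest.

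For the PDGF receptors, Pdgfra made up 48.5%, 47.8%, 51.1% and 49.9% in the LD livers and 61.4%, 57.3%, 48.5% and 58.4% in those of A75, A91, A94 and A115. The ADV livers other than A94 lay above the LD range (exact permutation p = 0.0857, adjusted p = 0.514). In the kidneys the share was 55.9% to 60.1% in LD and 39.7%, 54.8%, 58.3% and 74.6% in A75, A91, A94 and A115, so that the ADV kidneys spread to either side.

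The genes whose log2 levels, each centred on its mean, followed a member most closely over the 16 libraries were named for 2 members. For Tgfb1 they were Scube1, Plekho1 and Lfng, with a mean absolute difference of 0.191, 0.192 and 0.209 on the log2 scale, against a median of 0.691 over all genes. Plekho1 stood at 9.20 FPKM in the liver of A94, its highest liver level, and at 19.0 in its kidney. For Pdgfrb they were Fbxw17, Fanca and BC049805, with 0.120, 0.151 and 0.171 against a median of 0.819, and Fbxw17 and Fanca were highest in the kidney of A75, as Pdgfrb was. Scube1 and Fanca were low genes, with at most 0.406 and 0.235 FPKM in the livers, where the added 0.1 understates log2 changes. The 16 libraries come from 8 mice and differ first of all by organ, so that these values are a description.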

How the data were processed

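Poly(A) RNA of liver and kidney was measured as 1 stranded paired-end library per mouse and organ. Per the methods of the study, the authors trimmed with Trimmomatic, mapped with STAR (2.5.4b, per the submitters' processing notes) to GRCm38/mm10, dropped alignments with a mapping quality under 10 and counted exons of UCSC canonical genes with Homer. The deposited values are FPKM, although the headers say RPKM, and they come out in steps of 0.5 fragment (tolerance 0.005 fragment). Which of the 2 sequencing providers made which library is not given in the sources used here, so that a batch could not be tested. No column of another sample was present.

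Genes whose mean FPKM times exon length in kilobases exceeded 0.5 were tested in R 4.3.3 with limma 3.58.1 (lmFit, eBayes with a trend) on log2(FPKM + 0.1), in each organ apart, and on liver minus kidney differences per mouse for the organ comparisons, with Benjamini-Hochberg adjustment over all genes. Count models were not fitted to the deposited values, because their unit is FPKM. Limma-voom ran on the recovered fragments as an alternative. The steps were tested on simulated data. Single values were compared by exact permutation over 70 assignments, or 256 sign flips within mice.

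The 10 members and the 5 lists were chosen with earlier results of these data known. All members were named, and of each list the genes called, up to 4 by smallest p, or else the 2 genes with the smallest p. The genes most like Tgfb1 and Pdgfrb were taken by the smallest mean absolute difference of centred log2 values. Mitochondrial transcripts were taken by chromosome. Liver and kidney were paired by the mouse number in the labels. The correlation of their deviations from the group means across genes was between −0.0100 and 0.507, with a median of −0.00694 for different mice.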

Additional observations from a re-analysis of the deposited data

Results flagged for a closer look

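A sample far from the 3 others of its group, by Dixon's ratio at its 95% critical value, was found in 8 of 56 groups tested, and chance flags about 1 in 20 groups. In the ADV livers, A94 stood apart with 6.94 FPKM of Tgfb1, against 1.45 to 2.30 in the others, and with 10.4 FPKM of Tgfbr2, against 4.42 to 5.10. In the ADV kidneys, A115 stood apart with 22.9 FPKM of Tgfbr1, against 10.2 to 12.1. In the LD kidneys, L86 stood apart with 9.56 FPKM of Tgfb1, against 4.66 to 5.22, and in the LD livers L104 with 7.66 FPKM of Tgfbr1, against 6.70 to 6.85. Among the shares, A75 had 69.1% Tgfb1 among the ligand transcripts of the ADV livers, against 84.0% to 86.3%. L86 had 53.3% Tgfbr2 among the TGF-beta receptor transcripts of the LD kidneys, against 42.8% to 44.5%. L63 had 60.1% Pdgfra among the PDGF receptor transcripts of the LD kidneys, against 55.9% to 56.1%. No difference of the ADV effect between the organs passed the test for any of the 10 genes.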

How the results depend on the processing

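Of 754 values of the members' log2 fold changes under alternatives, 696 kept their direction and their side of the threshold, and none of the liver values between ADV and LD crossed the threshold. With the mouse as a replicate block, 0 members were called between ADV and LD in either organ, and without it 9 were called between the organs, where 74.5% of all genes were called, and 0 for the difference of the ADV effect, so that the block changed no call of a member. With A115 left out and scaling by the median ratio, 1 member (Tgfbr1) was called in the kidney, and of the lists 5 storage and activation genes (Ltbp3, Ltbp4, Emilin1, Itgav and Itgb8), 5 other Smads and regulators (Smad6, Eng, Smurf2, Skil and Zfyve9) and 4 PDGF receptor signalling genes (Src, Sos1, Rasa1 and Nck1), of which 3, 2 and 1 were called higher, where 16% of all genes were called. Between the organs, 6 other Smads and regulators were called after scaling by the median ratio, after quantile normalization and in ADV mice only, and of the PDGF receptor signalling genes 7 after scaling by the median ratio, 8 with A115 left out as well and 2 in ADV mice only. Of all genes, 65.9% were called by median ratio, 77.9% with A115 left out as well, 64.2% by quantiles and 47.4% in ADV mice only. Directions turned as follows. In the liver, Tgfbr3 was −0.077 after quantile normalization. In the kidney, Tgfb2 was −0.0235 after quantile normalization and −0.29 with A115 left out and median-ratio scaling, where Tgfbr2 was −0.059 and Pik3r1 −0.18. Smad7, at 0.00 in the kidney, was 0.013 and 0.024 with pseudocounts of 0.5 and 1, 0.016 after quantile normalization, 0.0013 with totals without mitochondrial transcripts and 0.17 with A115 left out and median-ratio scaling. Between the organs, Tgfb3 was 0.32 by median ratio, 0.87 by quantiles and 0.30 with A115 left out as well, where Tgfbr1 was 0.0044, Crk 0.15, Grb2 0.10 and Rasa1 0.39. By median ratio alone Crk was 0.0555, Grb2 0.16 and Rasa1 0.16, and Rasa1 was 0.0875 by quantiles. For the difference of the ADV effect, Tgfbr1 was −0.0586 and −0.0060 and Tgfbr2 −0.0255 and −0.0558 by median ratio and by quantiles, and Pdgfrb was −0.0528 and −0.0979 with pseudocounts of 0.5 and 1, −0.0549 by median ratio, −0.27 by quantiles, −0.0134 with limma-voom and −0.26 with A115 left out and median-ratio scaling. The cause of these turns was not tested. Leaving out 1 mouse at a time, the liver values ranged from −0.15 to 0.58 for Tgfb1, −0.10 to 0.0195 for Tgfbr1 and −0.0507 to 0.36 for Tgfbr2. The kidney values ranged from −0.13 to 0.30 for Tgfb2, −0.32 to 0.0669 for Tgfbr1, −0.31 to 0.16 for Smad3, −0.25 to 0.36 for Smad7 and −0.0052 to 0.78 for Pdgfrb. The differences of the ADV effect ranged from −0.40 to 0.38 for Tgfb1, −0.0306 to 0.36 for Tgfb3, −0.10 to 0.34 for Tgfbr1, −0.24 to 0.25 for Tgfbr2, −0.26 to 0.10 for Smad3 and −0.36 to 0.50 for Pdgfrb. The kidney list counts ranged from 0 to 4 for storage and activation, 0 to 5 for the other Smads and regulators, 0 to 1 for the induced transcripts and 0 to 4 for PDGF receptor signalling, each highest without A115, where 4, 3, 1 and 2 were called higher and 18.8% of all genes were called. The shares ranged in percentage points from −4.17 to 3.75 for Tgfb1 between ADV and LD kidneys, −2.48 to 2.52 for Tgfb1 between the organs, −6.15 to 2.82 and −1.73 to 5.89 for Smad7 in livers and kidneys, and −6.07 to 5.56 for Pdgfra in the kidneys. Depth limits Tgfb2 in the livers, with 3 to 26 fragments, and Tgfb3, with 14 to 75.5 in the livers and 16 to 57 in the kidneys.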
